A study of Mus musculus with 24 samples.

Results

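The Khdrbs family comprises 3 mouse genes, Khdrbs1, Khdrbs2 and Khdrbs3, which encode the RNA-binding proteins SAM68, SLM1 and SLM2. They were taken by gene symbol from the 17953 genes held in the expression tables of this study. Khdrbs2 was selected on its higher level in neural progenitors lacking Htt, so that contrast is described below without a test. The study sequenced total RNA of mouse embryonic stem cell lines (mESC) and of neural progenitors differentiated from such lines (NPC), in 24 libraries. Each cell type had 6 Htt genotypes with 2 libraries each. These were wild type (WT), Htt knockout (KO) and knock-in lines called Q20, Q50, Q92 and Q111, heterozygous for an Htt allele with 20, 50, 92 or 111 CAG repeats. The growth protocol gives 89 repeats for the line titled Q92. The mESC were kept in serum and LIF over a feeder layer of CF-1 mouse embryonic fibroblasts, and the NPC were induced in N2B27 medium and expanded with FGF and EGF on laminin. Each repeat length was 1 line, so repeat length and line cannot be told apart, and the knock-in cells carried 1 altered Htt allele only.

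The family belongs to the STAR group of proteins, in which a KH RNA-binding domain is flanked by conserved stretches that allow the proteins to pair. They bind RNA motifs rich in A and U and regulate alternative splicing and the choice of 3′ ends. SAM68 is widely expressed and is phosphorylated by Src-type kinases, while SLM1 and SLM2 are best known from neurons, where the family controls splicing of synaptic transcripts.

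In the GENCODE M21 annotation of GRCm38, Khdrbs1 (ENSMUSG00000028790) lay on the minus strand of chromosome 4 at 129703164 to 129742303. Khdrbs2 (ENSMUSG00000026058) lay on the plus strand of chromosome 1 at 32172714 to 32658568. Khdrbs3 (ENSMUSG00000022332) lay on the plus strand of chromosome 15 at 68928420 to 69101211. The genes spanned 39.1 kb, 485.9 kb and 172.8 kb, with 6.419 kb, 10.291 kb and 3.662 kb of merged exons. Khdrbs2 overlapped 8 annotated genes, of which Gm5415 on the other strand was in the mESC table, at no more than 0.0914 CPM. The start of Khdrbs2 is shown because this gene varied most among the members, from near 0 to a clear signal. The window chr1:32172472-32172771 (plus strand, RefSeq on GRCm38.p6) runs from 250 bases before the RefSeq start to 50 bases after it, with CG dinucleotides in capitals.
Khdrbs2 promoter: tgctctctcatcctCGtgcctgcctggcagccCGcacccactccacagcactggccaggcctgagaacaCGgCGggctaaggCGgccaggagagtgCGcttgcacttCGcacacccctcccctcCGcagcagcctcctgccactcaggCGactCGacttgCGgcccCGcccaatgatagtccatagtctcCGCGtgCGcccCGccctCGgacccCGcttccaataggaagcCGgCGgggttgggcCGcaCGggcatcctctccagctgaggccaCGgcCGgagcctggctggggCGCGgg
It held 26 CG dinucleotides, a motif that reads the same on both strands, and its GC content was 70.3%. The median was 7 CG over 32851 RefSeq promoters of the same length, and 16.9% of them held at least as many as Khdrbs2. The start of this gene is therefore richer in CG than most, although its transcript was scarce in most libraries.

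Values are CPM, the reads of a gene relative to all counted reads of its library, scaled within each cell type by the authors. Behind them were 58546211 to 81502284 counted reads per library in mESC and 48525333 to 118038952 in NPC. Htt, the targeted gene, stood at 137 and 177 CPM in the WT NPC and at 100 and 94.9 in the KO NPC, without overlap, and did not pass the test there (limma, log2 difference -0.67, SE 0.14, adjusted p = 0.0673). In mESC it stood at 124 and 113 CPM in WT, 139 in the library labelled KO 1 and 68.5 in the library labelled KO 2. The library labelled KO 1 was thus no lower in Htt than WT, and mESC comparisons with KO are given as comparisons of labelled libraries. Transcripts of the progenitor markers were present in every NPC group, summing to between 4007 CPM in a Q20 library and 9383 in a Q50 library over 9 genes. The NPC lines nevertheless differed in other markers. Pluripotency markers (5 of 8 in the NPC table) summed to 106 to 108 CPM in Q20 and to between 4.72 and 26.5 elsewhere, with Pou5f1 at 90.1 and 87.4 CPM in Q20 and below 1 in the other groups. Fibroblast markers (7 of 7) summed to 241 to 299 CPM in Q20, 876 to 899 in Q50 and 2.54 to 36.9 in the others. Oligodendrocyte markers (4 of 4) summed to 132 to 147 CPM in Q20, 51.3 to 55.0 in Q111 and 3.88 to 35.7 in the others. Astrocyte markers (5 of 5) summed to 1591 to 1786 CPM in Q20, 961 to 1118 in Q50, 333 to 336 in Q92, 237 to 248 in Q111 and 870 to 1442 in WT and KO. Neuron markers (10 of 10) summed to 878 to 1047 CPM in Q20 against 1023 to 1728 elsewhere, with an overlap with Q92. Most of this sum was Map2, and most of the list went the other way. In Q20 8 of the 10 stood above WT on the log2 scale, with a median difference of 0.96. Of the 10, limma called 5 higher and 2 lower, where 14.5% of all genes were called. Map2 stood at 599 and 646 CPM in Q20 and 1593 and 1228 in WT, while Stmn2 stood at 103 and 128 CPM in Q20, 5.51 and 5.24 in Q111 and below 1 in the remaining libraries.

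**Figure D1:**
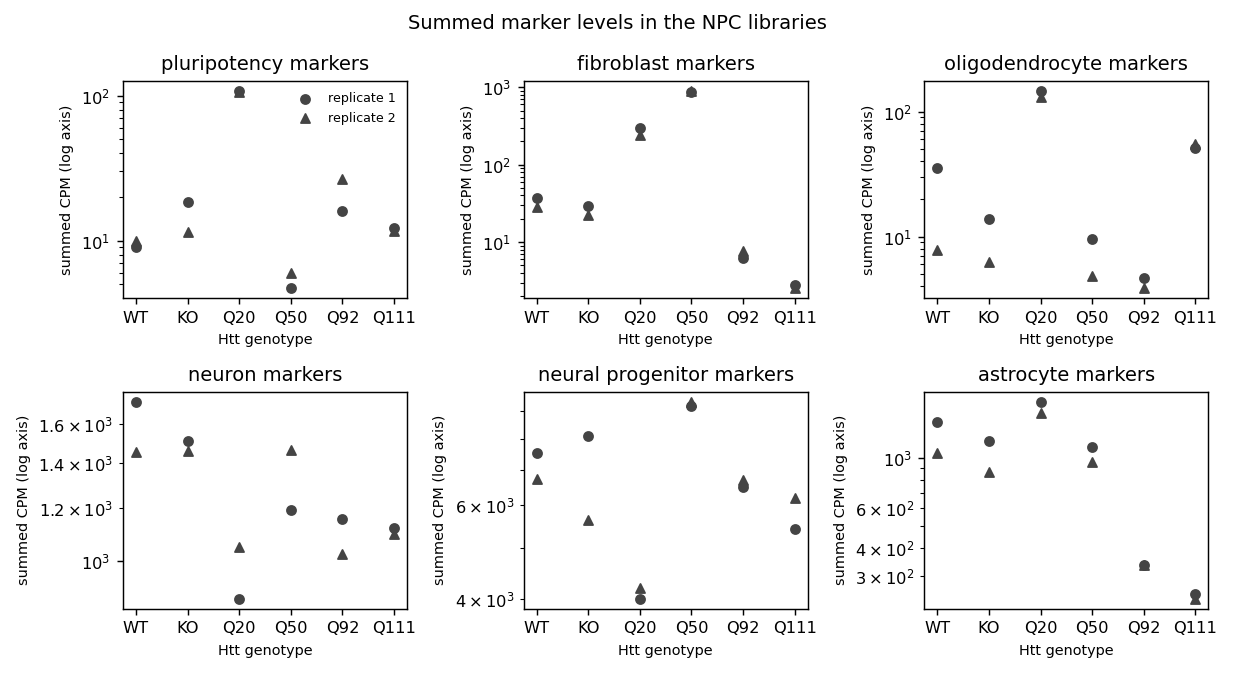
Summed CPM (log axis) of 6 marker lists in the 12 NPC libraries, by Htt genotype on the horizontal axis, with circles for replicate 1 and triangles for replicate 2. The Q20 libraries stand above all others for pluripotency and oligodendrocyte markers, and Q50 and Q20 stand above the others for fibroblast markers.

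Per kilobase of exon, Khdrbs1 and Khdrbs3 were the abundant members in both cell types and Khdrbs2 was a minor one. In NPC the median levels over 12 libraries were 25.4 CPM per kb for Khdrbs1, 21.8 for Khdrbs3 and 0.0757 for Khdrbs2. In mESC they were 19.8, 10.3 and 0.0273. The ratio of Khdrbs1 to Khdrbs3 per kilobase ran from 0.986 to 4.36 in mESC and from 0.741 to 1.68 in NPC, so the order of this pair was not the same in every library. The NPC median was 1.28 times the mESC median for Khdrbs1, 2.11 times for Khdrbs3 and 2.77 times for Khdrbs2. These ratios cross tables that were scaled separately and carry no test. In NPC, Khdrbs2 made up 4.50% and 3.64% of the family's summed level per kilobase in the KO libraries, 1.31% and 1.38% in Q20, and less than 1% in all others, down to 0.00363% in a Q92 library. Over the 12 NPC libraries the log2 range of Khdrbs2 was wider than that of 97.9% of the 13206 genes tested, against 46.3% for Khdrbs3 and 9.48% for Khdrbs1. The range of Khdrbs2 ends at the KO value it was selected on, so its standing is a description.

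**Figure D2:**
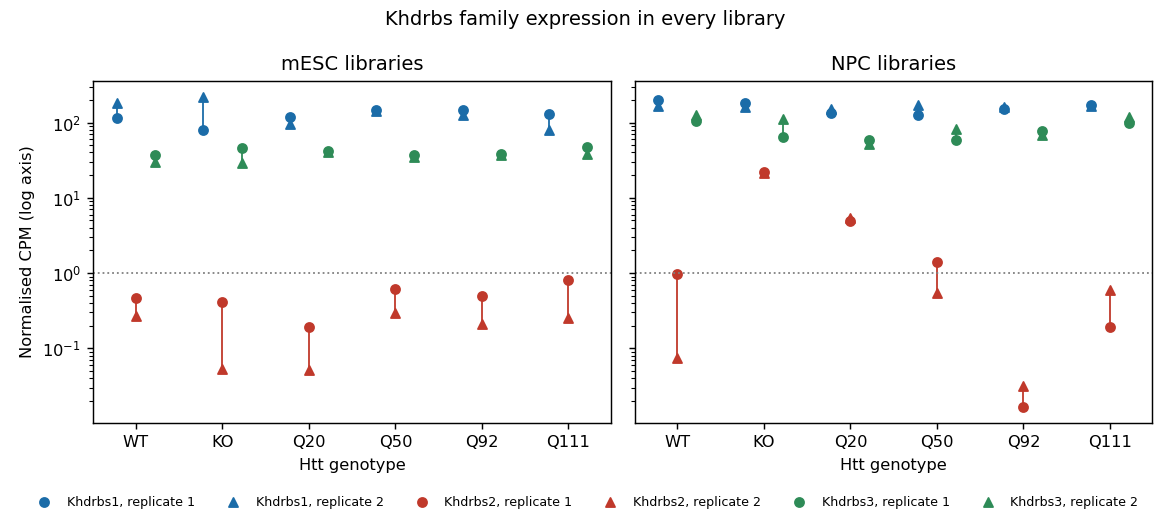
Normalised CPM (log axis) of Khdrbs1 (blue), Khdrbs2 (red) and Khdrbs3 (green) in every mESC and NPC library, by Htt genotype. Circles and triangles are replicates 1 and 2, and the dotted line is the filter level of 1 CPM. Khdrbs2 lies below that line in all 12 mESC libraries and above it in the KO and Q20 NPC.

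Khdrbs2, which encodes SLM1, a splicing regulator of neurons, was close to absent in most NPC libraries and clearly present in KO and Q20. The KO libraries stood at 22.0 and 21.5 CPM (2229 and 2436 reads), and the WT libraries at 0.963 and 0.0736 (55 and 6 reads). Q20 gave 4.97 and 5.47 CPM, Q50 gave 1.39 and 0.541, Q92 gave 0.0165 and 0.0313, and Q111 gave 0.190 and 0.595. The order of the group means was KO, Q20, Q50, WT, Q111 and Q92. The KO and Q20 libraries overlapped no other group, Q50 overlapped WT, WT overlapped Q111, and Q92 lay below every other library. The WT replicates themselves differed by 0.87 on the log2(CPM + 1) scale, the widest gap between replicates of any NPC group for this gene. As the basis of its selection, the KO mean of 21.7 ± 0.332 CPM (SD, n = 2) exceeded the WT mean of 0.519 ± 0.629 by 3.97 on that scale. The scale understates changes of genes near 0. With a pseudocount of 0.1 in place of 1 the difference was 5.67. In this contrast 188 of 13206 genes (1.42%) were called, and nothing is read from that share for the members, because the contrast chose them. The difference of Q20 from WT, which uses the same WT libraries, was 2.10 and is also given without a test. In bulk RNA, more cells with the transcript and more transcript per cell cannot be told apart.

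Among the knock-in lines, whose values the selection did not use, Khdrbs2 was lower in each longer line than in Q20. The SE of these pairs and of the F test below drew on the replicate spread of all NPC groups, WT and KO included. Q50 minus Q20 was -1.69 on the log2(CPM + 1) scale (limma, SE 0.31, Benjamini-Hochberg adjusted p = 0.00636 over all genes). Q92 minus Q20 was -2.60 (SE 0.31, limma adjusted p = 0.000548) and Q111 minus Q20 was -2.17 (SE 0.31, limma adjusted p = 0.00157). Both libraries of each longer line lay below both Q20 libraries. In reads, Q20 exceeded Q50 6.07-fold (95% counting interval 5.01 to 7.42) and Q111 13.5-fold (10.3 to 18.0). Q92 held 3 reads against 910 in Q20, a ratio of 217 with a counting interval of 74.2 to 1056. These intervals cover counting error only. Khdrbs2 passed the low-value filter through its KO, Q20 and first Q50 libraries, 5 of 12 in all, and its calls in these pairs were kept with no filter. The Q50 call was lost with edgeR on the recovered reads (log2 -2.43, adjusted p = 0.139) and with the smaller pseudocount (log2 -2.44, limma adjusted p = 0.0744). The Q92 and Q111 calls were kept under every alternative tried, with adjusted p up to 0.00673 and 0.0336.

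An F test over the 4 knock-in lines in NPC called Khdrbs2 (limma F 27.3, adjusted p = 0.00135) and neither other member, 1 of 3 members against 41% of all genes. For the pairs with Q20, 1 of 3 members was called in Q50 against 18.8% of all genes, 1 of 3 in Q92 against 25.8%, and 2 of 3 in Q111 against 28.3%. With so many genes called among these lines, the counts are not a result about the family as a group. Against repeat length, the log2 change of Khdrbs2 from 20 to 111 repeats was -2.23 (limma, SE 0.48, adjusted p = 0.0146). The decline was not steady, since Q92 lay below Q111 and the libraries of these lines did not overlap. Without the Q20 line the change over the same span was -0.92 (adjusted p = 0.298, limma). The slope was also not called without Q20 replicate 1 (adjusted p = 0.0704, limma), without Q20 replicate 2 (0.0663), with 1 mean per line (0.319) or with edgeR (log2 -4.22, adjusted p = 0.0512). The higher Khdrbs2 of Q20 came beside the pluripotency, fibroblast, oligodendrocyte, astrocyte and neuron marker values given above, whose part in the result was not tested. Over repeat length 3 of 5 astrocyte markers fell (limma, median change -3.37), as did 5 of 7 fibroblast markers (-3.48). Of 4 pluripotency markers tested 2 fell and 1 rose. Of 10 neuron markers 1 fell, and 0 of 4 oligodendrocyte markers were called, where 22% of all genes were. In Q92 against Q20, 5 of 5 astrocyte and 7 of 7 fibroblast markers were lower, where 25.8% of all genes were called. In Q111 these were 4 of 5 and 7 of 7, where 28.3% were called. In Q50 against Q20, 5 of 7 fibroblast markers were higher, where 18.8% were called. Of 10 neuron markers 6 were lower and 2 higher in Q50 than in Q20. For Q92 these counts were 7 and 1, and for Q111 5 and 1. Of 4 oligodendrocyte markers 2 were lower in Q50, 3 in Q92 and 2 in Q111, and 0 were higher.

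**Figure D3:**
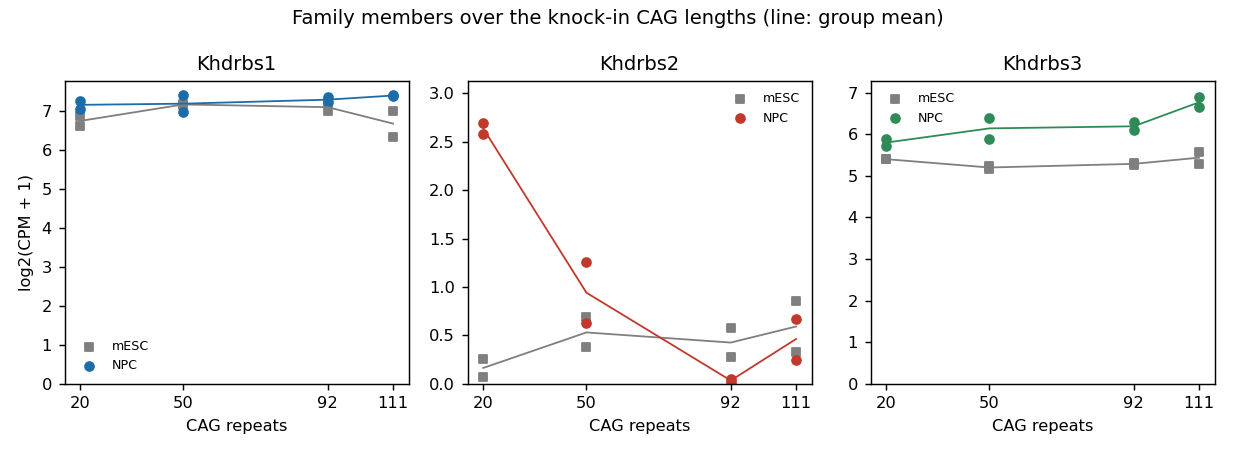
log2(CPM + 1) of each member in the knock-in libraries against CAG repeats (20, 50, 92, 111), with mESC in grey squares, NPC in coloured circles and lines through the group means. Khdrbs2 in NPC falls from Q20 to Q92 and is higher again in Q111, while Khdrbs3 in NPC is lowest in Q20 and highest in Q111.

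Khdrbs3, which encodes SLM2, another neuronal splicing regulator, was expressed in all NPC libraries and, among the knock-in lines, was lowest in Q20, where Khdrbs2 was highest. WT stood at 106 and 126 CPM, KO at 63.7 and 110, Q20 at 57.7 and 51.8, Q50 at 58.2 and 83.1, Q92 at 76.8 and 67.6, and Q111 at 99.0 and 118. Both Q20 libraries lay below all 10 others, the nearest of which was Q50 replicate 1. All other neighbours in the order WT, Q111, KO, Q92, Q50 overlapped. Khdrbs3 was lower in Q20 than in WT, by -1.07 on the log2 scale (limma, SE 0.27, adjusted p = 0.0325), 1 of 2 members tested against 14.5% of all genes. It was higher in Q111 than in Q20 by 0.97 (limma, SE 0.27, adjusted p = 0.0308). Q50 and Q92 differed from Q20 by 0.34 and 0.39 (limma adjusted p = 0.444 and 0.313). The F test over the knock-in lines did not call it (F 4.42, limma adjusted p = 0.0799). KO differed from WT by -0.46, with the KO replicates 0.78 apart and one of them inside the WT range. Between libraries of the same replicate number, KO minus WT was -0.73 for replicate 1 and -0.19 for replicate 2.

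With repeat length, Khdrbs3 rose in NPC by 0.80 over 20 to 111 repeats (limma, SE 0.22, adjusted p = 0.0330). With Khdrbs2, this made 2 of 3 members called against 22% of all genes. The Khdrbs3 calls were narrow. With the replicate number as a block the slope had a limma adjusted p of 0.0552, and it was not called without either Q20 or either Q111 library (0.0870 to 0.114, limma). Without the Q20 line the slope was again 0.80, with an adjusted p of 0.223. The Q111 call was lost without any 1 of its 4 libraries (adjusted p 0.0828 to 0.154, limma). The Q20 to WT call was lost without WT replicate 2 (0.100) or either Q20 library (0.115 and 0.161, limma), when the fit held the WT and Q20 libraries alone (0.0843), and at a filter of a mean CPM of 5 (0.0525). Between Q20 and WT, 5 of 7 fibroblast, 3 of 4 oligodendrocyte, 2 of 5 astrocyte and 2 of 4 tested pluripotency markers rose. Of 10 neuron markers 5 rose and 2 fell (limma, 14.5% of all genes called). Over repeat length only part of these lists changed, as given above. The part of the markers in the Khdrbs3 differences was not tested.

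Khdrbs1, which encodes SAM68, was the steadiest member in NPC. It stood at 198 and 164 CPM in WT, 179 and 161 in KO, 132 and 152 in Q20, 124 and 168 in Q50, 149 and 162 in Q92, and 170 and 165 in Q111. Of neighbours in the order of means, WT, KO, Q111, Q92, Q50 and Q20, only Q111 and Q92 did not overlap. KO and WT differed by -0.08 on the log2 scale. Q20 minus WT was -0.34 (95% interval -0.73 to 0.05, limma adjusted p = 0.248), and Q111 minus Q20 was 0.24 (-0.15 to 0.63, adjusted p = 0.314). Differences of Q50 and Q92 from Q20 were 0.03 and 0.13 (limma adjusted p = 0.931 and 0.591). The change over repeat length was 0.23 (-0.10 to 0.57, adjusted p = 0.290). No NPC comparison tested called Khdrbs1, and the intervals of these differences reached no further than 0.73 from 0.

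In mESC no member was called in any comparison. Khdrbs3 kept within 28.9 to 46.8 CPM, with WT at 37.6 and 29.5, the libraries labelled KO 1 and KO 2 at 46.4 and 28.9, Q20 at 41.5 and 41.0, Q50 at 36.9 and 34.6, Q92 at 38.6 and 37.5, and Q111 at 46.8 and 38.2. Its range was narrower than that of all but 11.8% of the genes tested. Khdrbs1 was more variable, at 114 and 184 CPM in WT and 80.2 and 221 in the libraries labelled KO 1 and KO 2. It stood at 117 and 96.5 CPM in Q20, 145 and 140 in Q50, 146 and 127 in Q92, and 128 and 80.1 in Q111. The KO libraries held both the second lowest and the highest value of all 12. Between libraries of the same replicate number, labelled KO minus WT was -0.51 for replicate 1 and 0.27 for replicate 2. The mean difference was -0.12 for Khdrbs1 (limma, SE 0.45, adjusted p = 1.00) and 0.13 for Khdrbs3 (SE 0.26, adjusted p = 1.00), in a contrast that called 0.0144% of 13916 genes. The library labelled KO 1, in which Htt was not lower, enters both.

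Q20 differed from WT in mESC by -0.44 for Khdrbs1 (limma adjusted p = 0.764) and 0.30 for Khdrbs3 (0.713), where 0.323% of genes were called. Neither member passed in Q50 or Q92 against Q20, with 0.00719% called in each, or in Q111 against Q20, with 0% called. The F test over the lines called 0.0719% of genes and the repeat-length slope 0%, and neither called a member. Changes over repeat length were -0.04 for Khdrbs1 (95% interval -0.66 to 0.58) and 0.05 for Khdrbs3 (-0.38 to 0.47). All unadjusted limma p-values of these members in mESC were 0.277 or more, and edgeR on the recovered reads called neither. For Q111 and for the slope, limma called 0 of 13916 genes, edgeR called 0, and 374 and 358 genes had an unadjusted p under 0.05. Khdrbs2 ranged from 0.0523 to 0.808 CPM (4 to 53 reads) in mESC and did not reach the filter in any library. Its values were 0.461 and 0.266 in WT, 0.412 and 0.0530 in the libraries labelled KO 1 and KO 2, 0.193 and 0.0523 in Q20, and 0.256 to 0.808 over the Q50, Q92 and Q111 libraries other than Q92 replicate 2 at 0.212. Tested without the filter, its lowest limma adjusted p was 0.676. In each mESC genotype, Khdrbs2 was lower in replicate 2 than in replicate 1, and so was Khdrbs3.

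Slopes over repeat length were compared between NPC and mESC for the genes tested in both. Khdrbs3 differed by 0.76 (limma interaction, SE 0.28, unadjusted p = 0.0165, adjusted p = 0.139) and Khdrbs1 by 0.27 (adjusted p = 0.683). Neither of the 2 members tested was called, against 4.86% of 12321 genes, and edgeR called neither. The call of the Khdrbs3 slope in NPC and its absence in mESC are therefore not shown to differ. Khdrbs2, under the filter in mESC, had no such test.

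Proteins that modify or bind SAM68 were examined as a list of 18 genes, of which 17 passed the filter in NPC. Over repeat length 5 rose and 2 fell, where 22% of all genes were called, with a median change of 0.42 against 0.04 over all genes. With 1 library left out, these counts went as low as 2 and 0 without Q20 replicate 1. Cdk1, the mitotic kinase, rose by 1.62 (limma adjusted p = 0.000828), from 127 and 129 CPM in Q20 to 408 and 406 in Q111. Prmt1, an arginine methyltransferase that modifies SAM68, rose by 0.82 (0.00509), from 143 and 149 CPM to 257 and 243. Src, the tyrosine kinase that gave SAM68 its name, fell by 0.87 (0.0321), from 150 and 123 CPM to 66.6 and 59.5. Smarca2, a chromatin remodelling ATPase, fell by 1.08 (0.0280), from 87.1 and 81.0 CPM to 42.7 and 40.1. These 4 genes did not overlap between Q20 and Q111, but they were picked by called slopes fitted on these libraries. The lack of overlap is therefore a description only. Cdk1 and Prmt1 were also split between the WT replicates, at 95.3 and 370 CPM and at 104 and 221 CPM. In Q111 against Q20, 2 of the 17 rose and 3 fell, near the 28.3% of all genes called, and 0 rose and 1 fell without Q20 replicate 1. Over the same span, the slopes of Cdk1 and Prmt1 kept their calls when any 1 knock-in library or the Q20 line was left out. Those of Src and Smarca2 did not, with limma adjusted p up to 0.135 and 0.0868 without 1 library, and Src changed by -0.63 (adjusted p = 0.335) without the Q20 line. Fyn, another kinase of SAM68, changed by -0.04 over repeat length (adjusted p = 0.931, limma). Sf1, a STAR-domain splicing factor outside the family, rose by 0.75 (limma adjusted p = 0.00563), from 84.2 and 86.0 CPM in Q20 to 132 and 140 in Q111.

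Transcripts known as targets of the family for splicing or 3′ end choice formed a list of 12 genes, all tested in NPC. Over repeat length 4 rose and 1 fell, where 22% of all genes were called, with a median of -0.11 against 0.04 over all genes. Without Q20 replicate 1 or either Q111 library 2 rose and 0 fell. Ccnd1, which encodes cyclin D1, rose by 3.44 (limma adjusted p = 0.0270), from 130 and 140 CPM in Q20 to 1677 and 2030 in Q50 and 2298 and 2128 in Q111. Its WT replicates stood at 63.4 and 1167 CPM. The rise was from Q20 to the other lines, since without Q20 the slope was 0.30 (limma adjusted p = 0.554). With edgeR it was 2.58 (adjusted p = 0.142). The Ccnd1 call was also lost without either Q20 or either Q111 library. Aldh1a3, a retinaldehyde dehydrogenase, rose by 2.39 (0.0356), from 3.50 and 3.44 CPM in Q20 to 38.9 and 34.8 in Q111. Its call was lost without any 1 of the Q20, Q50 or Q111 libraries (limma adjusted p 0.0504 to 0.108), with log2 length (0.0684) and without the Q20 line (0.169). Srsf1, a splicing factor, rose by 1.07 (0.00492), from 168 and 184 CPM to 336 and 405. Nrxn3, which encodes a synaptic adhesion protein, fell by 2.97 (0.0420). Nrxn3 stood at 9.23 and 7.60 CPM in Q20, 32.5 and 21.8 in Q50, 2.06 and 2.35 in Q92, and 0.745 and 0.992 in Q111. It was thus highest in Q50, unlike Khdrbs2, which among these lines was highest in Q20. The Nrxn3 and Aldh1a3 slopes were also not called with the replicate block (limma adjusted p = 0.0678 and 0.0602). That of Nrxn3 was also lost without Q20 replicate 1, Q50 replicate 2 or any Q92 or Q111 library (0.0512 to 0.112, limma). Like that of Aldh1a3, the Nrxn3 call was lost with log2 length. The Srsf1 slope kept its call when any 1 knock-in library was left out. With 1 mean per line, limma called none of the partners or targets and 0 of 13206 genes, 1831 of them at an unadjusted p under 0.05. Nrxn2, at 45.0 and 41.7 CPM in Q20 and 42.0 and 41.6 in Q111, was not called (adjusted p = 0.355, limma). In Q111 against Q20, 4 of the 12 rose and 2 fell, where 28.3% of all genes were called, and without Q20 replicate 2 or Q111 replicate 2 only 1 rose and 1 fell. These are gene totals, and exon use within the transcripts was not analysed here. In mESC limma called none of the 17 partners or 10 targets tested in any comparison without a replicate block. With the block, Q20 against WT called 3 targets, Cd44, Il1rap and Sgce, as higher and 2 partners, Cdk1 and Rbmx, as lower, among 1475 genes, and no other mESC comparison called one. Without the block, 2 partners and 2 targets had an unadjusted p under 0.05 between Q20 and WT, and 1 partner and 0 targets had one for the slope over repeat length. Between cell types the slopes of Cdk1 and Ccnd1 differed, by 1.35 and 3.89 (limma adjusted p = 0.00463 and 0.0392), and no other gene of both lists was called. The Ccnd1 difference was not called by edgeR (3.00, adjusted p = 0.150), nor without any 1 of 12 of the 16 libraries (limma adjusted p up to 0.128).

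**Figure D4:**
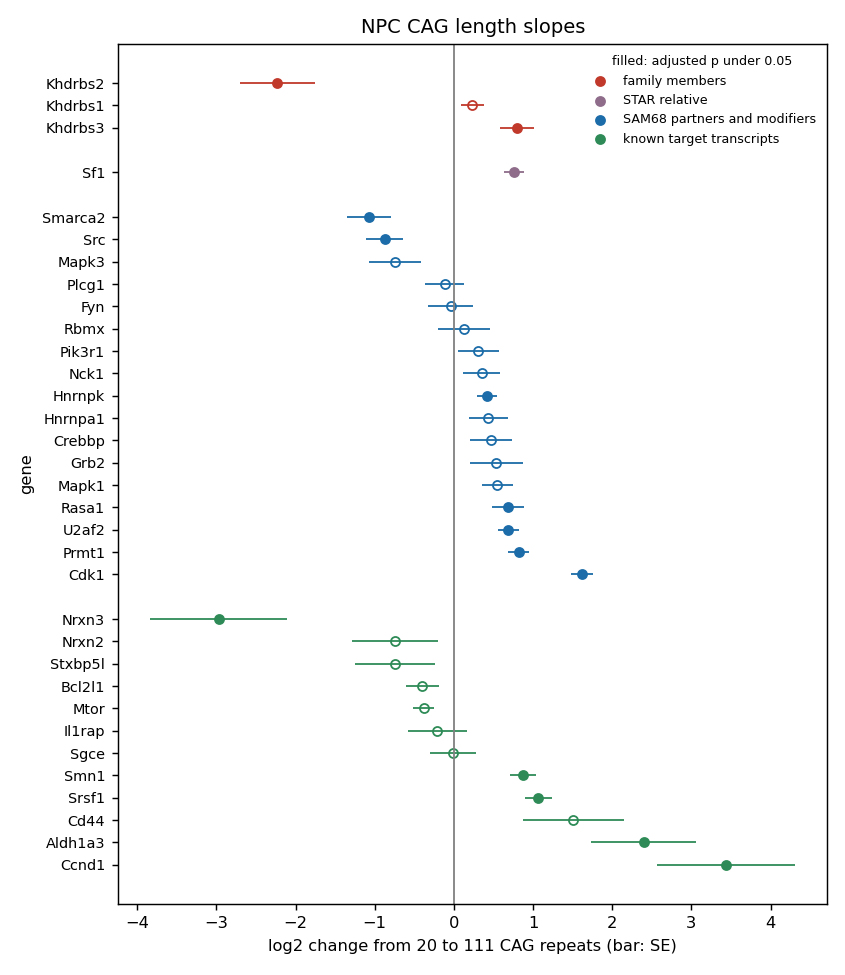
log2 change from 20 to 111 CAG repeats in NPC (horizontal axis, bar: SE) for the family members, the STAR relative Sf1, SAM68 partners and known target transcripts, 1 gene per line. Filled points passed the limma test at an adjusted p of 0.05; Khdrbs2 and Khdrbs3 are filled and lie on opposite sides of 0.

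By the correlation of log2(CPM + 1) over the 12 NPC libraries, which include the KO and WT values Khdrbs2 was selected on, the genes most like Khdrbs2 were Abca6 (Pearson r 0.93), Ctnna3 (0.93) and Pax7 (0.92). All 3 were scarce. Ctnna3 stood at 11.1 and 3.18 CPM in KO, 2.32 and 2.50 in Q20 and 0.113 to 0.648 elsewhere. Pax7 stood at 4.59 and 3.26 CPM in KO, 2.11 and 2.10 in Q20 and at most 1.12 elsewhere. Those most like Khdrbs3 were Tor1b (0.91), Knstrn (0.88) and Tnfaip6 (0.87), and those most like Khdrbs1 were Nras (0.88), Cbl (0.87) and Ctnna1 (0.84). The members were less alike with each other. In NPC r was 0.56 between Khdrbs1 and Khdrbs3, -0.29 between Khdrbs2 and Khdrbs3, and -0.02 between Khdrbs1 and Khdrbs2. In mESC Khdrbs1 and Khdrbs3 gave -0.76. There the genes most like Khdrbs1 were Anp32b (0.93), Shisa8 (0.90) and Hspe1 (0.90), and those most like Khdrbs3 were Rpl41 (0.94), Tmem100 (0.94) and Fads2 (0.93). The points of each correlation share the scaling of their table, and replicates of 1 genotype are not independent of each other.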

How the data were processed

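Paired reads of 75 bases came from total RNA on an Illumina NextSeq 500, per the labels' protocols. The submitters' processing notes name CASAVA 1.8, STAR and the build GRCm38.p6. The counting tool, its use of strand and the filter on genes are not given in the sources used here. The deposited values, named CPM by the authors, are a normalised signal in 1 table per cell type. All of them (100%, tolerance 0.1 read) were whole multiples of 1 step per library, which gave back the reads, and TMM factors recomputed from these reads matched the scaling. The planned test for normalised values was kept. Genes with at least 1 CPM in at least 2 of 12 libraries entered limma 3.58.1 as log2(CPM + 1) (R 4.3.3, variance trend, 1 mean per group), with Benjamini-Hochberg adjustment over all genes of a comparison and a threshold of 0.05. This tested 13916 genes in mESC and 13206 in NPC, in 15 comparisons. Pairs of groups and the F test used all 12 libraries of a cell type, with 1 shared estimate of spread per gene. Slopes over repeat length used the 8 knock-in libraries and are log2 changes over 91 repeats. Gene identifiers matched GENCODE M21 for 99.63% (mESC) and 99.82% (NPC).

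The members and gene lists were chosen with earlier results of these data known. Named genes were the 3 members, Htt, up to 4 called genes per list with the largest change, the 3 genes most correlated with each member and the nearest genes in the tables. One planned member of the target list is not reported here. Fyn, Nrxn2 and Stmn2 were added after their values were seen. Libraries of a group are 2 biological samples per the series' design, and nothing more says how separate their cultures were, so p-values measure the spread between these samples. The fits were tested on simulated data. These had 1 setting of spread for all genes, no replicate effect, and changes only in genes averaging at least 5 CPM. They do not cover genes near 0 or replicate differences shared by genotypes. Alternatives were a pseudocount of 0.1, no filter, a mean CPM of at least 5, median-of-ratios scaling, edgeR 4.0.16 on the recovered reads, a replicate block, fits with the libraries of both groups only, leaving out each library, 89 repeats for Q92, log2 length and 1 mean per line. Leaving out the Q20 line was added after seeing the data.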

Additional observations from a re-analysis of the deposited data

Results flagged for a closer look

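The slopes over repeat length of the SAM68 partner Cdk1 differed between NPC and mESC by 1.35 on the log2 scale (limma interaction, SE 0.23, adjusted p = 0.00463), a tested difference between groups. The slopes of the target transcript Ccnd1 differed by 3.89 in the same test (SE 1.01, limma adjusted p = 0.0392). The Ccnd1 call was lost without any 1 of 12 of the 16 libraries (adjusted p up to 0.128), with edgeR (0.150) and with 1 mean per line (0.386), while that of Cdk1 was lost with 1 mean per line (0.280). No member of the Khdrbs family had a difference of this kind that passed the test.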

How the results depend on the processing

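Libraries of 2 per group limit every test here, and reads of 1 to 6 in a library limit Khdrbs2 at its lowest. Of the values of members and named genes recomputed under the alternatives, 585 counted as unchanged. A further 80 lost their call, 17 tested values changed sign and 4 untested values moved. Tested values counted as unchanged when they kept their direction and side of the threshold. Untested values counted so when they moved by less than the SD between replicates, whatever their sign. None of the tested values that changed sign had been called. Khdrbs2 against WT grew with a pseudocount of 0.1, to 5.67 in KO and 3.63 in Q20, and with edgeR, to 5.34 and 3.34. The Khdrbs2 difference of Q50 from Q20 lost its call with the pseudocount (-2.44) and with edgeR (-2.43). Its slope lost the call with edgeR (-4.22), 1 mean per line (-2.23) and no Q20 line (-0.92), and ran from -2.62 to -1.90 when 1 library was left out. The Khdrbs3 slope in NPC (0.80) lost its call with the replicate block, 1 mean per line and no Q20 line (0.80 each) and ran from 0.64 to 0.89 when 1 library was left out. Khdrbs3 in Q20 against WT lost its call at a mean CPM of 5 and with the libraries of both groups only (-1.07 each), and ran from -1.19 to -0.95. In Q111 against Q20 it ran from 0.84 to 1.09. The causes were not tested.

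Signs that changed in a test were those of Khdrbs1 in mESC for KO against WT (0.011 with edgeR, -0.85 to 0.61 without 1 library), the slope (0.070 with log2 length, -0.27 to 0.27) and Q111 against Q20 (-0.40 to 0.27). The others were its slope difference (-0.038 to 0.50) and Q50 against Q20 in NPC (-0.19 to 0.25), and Khdrbs3 in mESC for the slope (-0.0055 with log2 length, -0.080 to 0.11), KO against WT (-0.20 to 0.47) and Q111 against Q20 (-0.11 to 0.18). Untested, Khdrbs1 in NPC KO against WT ran from -0.22 to 0.051. Khdrbs2 had no value at a mean CPM of 5, since its NPC mean was 4.81.

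Counts of called genes moved more. With the replicate block, mESC counts rose from 2 to 16 for KO against WT, 45 to 1475 for Q20 against WT, 1 to 137 for Q50, 1 to 64 for Q92, 0 to 8 for Q111 and 10 to 222 for the F test, and the slope difference from 599 to 1005. With the libraries of both groups only, mESC counts were 0 for KO and Q20 against WT and for Q92. In NPC they were 0 for KO against WT (188), 476 for Q20 against WT (1920), 3927 for Q50 (2478), 6160 for Q92 (3407) and 6712 for Q111 (3743). At a mean CPM of 5 the NPC counts were 1375, 2077 and 2353 for these lines against Q20. With 1 mean per line 0 slopes were called in NPC, of 2909, and 0 slope differences. Libraries with the same number share only a number per the labels, which give 2 numbers. Replicate differences of 2 genotypes correlated over genes at 0.25 to 0.55 in all 15 pairs of genotypes in mESC and at -0.05 to 0.47 in NPC, with 3 of 15 over 0.1. In NPC the value of 0.47 was that of WT with KO, and Q50 gave 0.17 with WT and 0.11 with KO. The block changed the call of no member other than Khdrbs3.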

Other observations

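The nearest genes with values on either side of Khdrbs2 did not follow its pattern over all NPC groups. Prim2, a DNA primase subunit 795.2 kb above Khdrbs2 on chromosome 1, stood at 39.1 and 98.8 CPM in WT NPC, 68.3 and 135 in KO, 48.6 and 41.3 in Q20 and 81.3 and 79.1 in Q92. Ptp4a1, a phosphatase 1223.4 kb below it, stood at 87.4 and 66.9 CPM in WT, 92.5 and 72.3 in KO and 41.8 and 47.2 in Q20. The WT and KO libraries of both neighbours overlapped, but within each replicate number KO was higher than WT, as for Khdrbs2. Q20 held their lowest or nearly lowest values, where Khdrbs2 was high.

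On chromosome 15, Fam135b, 2330.4 kb above Khdrbs3, stood at 10.5 and 11.9 CPM in Q111 NPC and at 1.10 or less in the other NPC libraries. Zfat, a zinc finger gene 669.6 kb below Khdrbs3, was highest in Q92 in both libraries, with a mean of 25.2 CPM, against 15.2 to 21.1 CPM in the other libraries. Next to Khdrbs1 on chromosome 4, Ptp4a2 stood at 277 and 283 CPM in Q20 and 387 to 476 in the other NPC groups. Tmem39b, 6.3 kb from Khdrbs1, stood at 5.76 and 6.04 CPM in Q50 NPC and at 6.54 to 12.0 in the others. In mESC, Tmem39b was higher in replicate 2 than in replicate 1 of every genotype, for example at 10.5 against 5.81 CPM in Q20 and at 13.9 against 6.16 CPM in the libraries labelled KO.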
